A study of Homo sapiens with 32 samples.

Results

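The genes described here encode the core and linker histones that package new DNA, and they were taken from the GENCODE 44 annotation by name: protein-coding genes whose symbol starts with H1-, H2AC, H2BC, H3C or H4C. The rule found 74 of the 19970 protein-coding genes on chromosomes 1 to 22 and X: 10 H1, 17 H2A, 19 H2B, 13 H3 and 15 H4 genes. They lay at 12 loci. Chromosome 6 held 55 of them, among them 32 genes between 26.0 and 26.3 Mb, 5 at 27.1 Mb and 16 between 27.8 and 27.9 Mb. A cluster on chromosome 1 at 149.8 to 149.9 Mb held 11 genes, and 6 genes stood alone. The name rule is wider than the label of replication-dependent histones: H1-10, H1-7, H1-8 and H1-6, for example, are linker types made outside S phase or in germ cells, and they were kept because the rule takes them.

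Replication-dependent histone genes are switched on together as cells enter S phase, when nucleosomes are needed for the copied genome. Most lack introns, and their messages end in a stem-loop rather than a poly(A) tail. The factor NPAT gathers at the clusters in a nuclear body, and class-specific DNA elements (the octamer of H2B promoters, read by POU2F1, and the H4 element, read by HINFP) feed into it.

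The assay was chromatin immunoprecipitation with sequencing (ChIP-seq) in HEK293T cells, an embryonic kidney line. The cells belonged to 1 clone, HEK_CloneZD29, in which ZNF143 carries an HA-marked degron tag. All samples, controls included, came from that tagged clone. They were collected untreated or after 30 min with 50 nM dTAGV-1, a compound that recruits the tagged protein for degradation. For the SP1, NRF1 and YY1 antibodies there were 4 untreated and 4 treated samples each. For the HA antibody, which reads ZNF143, and for the mock precipitation there were 2 untreated and 2 treated samples each. The labels do not say whether the replicates were separate cultures. ZNF143 is a zinc finger activator, SP1 a GC-box factor, NRF1 a factor of housekeeping promoters and YY1 a zinc finger factor that often sits just downstream of transcription starts.

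The values analysed were 4 lists of peak summits, 1 per antibody, of which SP1 had 126275 summits, YY1 106658, NRF1 39194 and ZNF143 16600. A summit is a 1-bp position with a score in column 5 of its file, a −log10 significance. No list separates samples or treatments, so untreated and treated cells could not be compared, and no value has a replicate error. Read depth is unknown, and scores and list lengths grow with it, so scores were compared only within a list, as the place of a summit counted from the top in percent. The intervals below are 95% Wilson intervals. They cover counting over genes or summits, which are not replicates, and no test was made.

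A gene was counted as having a summit when one lay within 500 bp of its annotated 5′ end. SP1 had a summit at 56 of the 74 histone genes (75.7%, interval 64.8 to 84.0%), against 59.1% of all protein-coding genes. YY1 had one at 53 (71.6%, interval 60.5 to 80.6%), against 57.8%. NRF1 had one at 51 (68.9%, interval 57.7 to 78.3%), against 48.3%. ZNF143 had one at 29 (39.2%, interval 28.9 to 50.6%), a share near the 31.7% of all genes. For SP1, NRF1 and YY1 the whole interval lay above the share of all genes, and the interval for ZNF143 included it. These positions depended on how starts and genes were taken. At the starts of canonical transcripts SP1 stood at 73.0% (interval 61.9 to 81.8%) against 64.5% of all genes, and YY1 at 70.3% (interval 59.1 to 79.5%) against 63.1%, so that both intervals included the share of all genes. Another setting left out the 18 histone genes whose 1-kb window, or the 51 bp around a summit, is repeated in the genome. The summit criterion can leave out only genes that have a summit, so it tends to lower the shares by construction. Without these 18 genes, the SP1 interval (56.7 to 80.1%) and the YY1 interval (54.8 to 78.6%) included the share of all genes too. Within 250 bp of the start, so did that of NRF1 (38.9 to 61.1%, against 39.7%).

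The lists met at the same genes. All 4 lists had a summit at 29 histone genes (39.2%, interval 28.9 to 50.6%), against 28.1% of all genes, and at 27 (36.5%, interval 26.4 to 47.9%) from canonical starts, against 31.6%. By annotated starts, all 29 histone genes with a ZNF143 summit had the other factors too. So did 5620 of the 6323 protein-coding genes with a ZNF143 summit, so this was common beyond histone genes. SP1, NRF1 and YY1 without ZNF143 were found at 20 genes (27.0%), against 17.4% of all genes. No summit of any list lay at 17 genes (23.0%), against 37.3% of all genes. Histone genes are nearly all intronless, with 73 of 74 having a single exon. Other single-exon protein-coding genes, 1040 in all, had SP1 summits in 23.7%, YY1 in 23.8%, NRF1 in 17.8% and ZNF143 in 10.5%, and 74.0% of them had none.

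**Figure D1:**
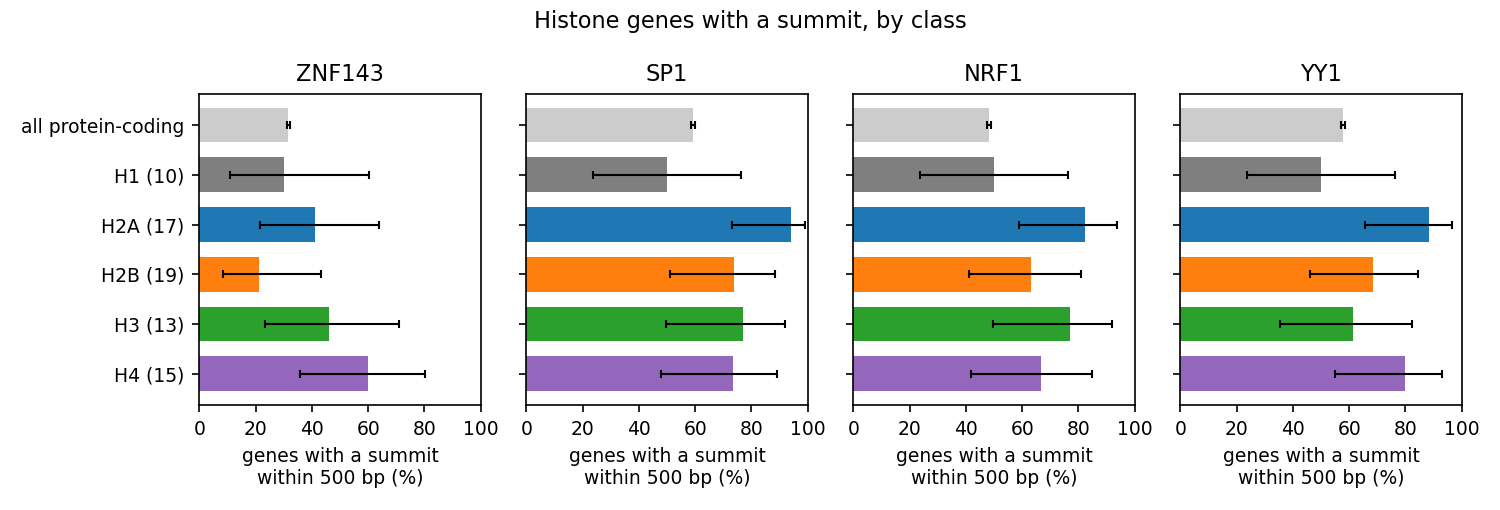
Share of genes with a summit within 500 bp of the 5′ end (%), by list and histone class, with the number of genes in brackets and all protein-coding genes in grey at the top; lines are 95% Wilson intervals. H2A had the highest SP1, NRF1 and YY1 shares, and H4 the highest ZNF143 share (60.0%). A summit shared by an H2A and an H2B gene that start back to back counts for both classes.

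Strength separated ZNF143 from SP1 and YY1. The highest SP1 summit at the 56 genes had a median column 5 of 1961, and its median place was the top 0.658% of the SP1 list, where all genes with an SP1 summit had a median of 197 and the top 11.3%. Several genes share a summit. With each of the 44 distinct highest SP1 summits counted once the median place was the top 0.922%, against the top 11.9%, and with all 47 distinct SP1 summits it was the top 1.10%. In the top 10% of the SP1 list stood 49 of the 56 (87.5%), against 45.1% of all genes with an SP1 summit. For YY1 the median was 320, the top 4.63%, against 139 and the top 10.2%. In the top 10% of the YY1 list stood 48 of the 53 (90.6%), against 49.3%. NRF1 highest summits had a median of 43.0 (top 18.8%) against 48.0 (top 18.1%) at all genes. The 41 distinct ones, each counted once, had a median place of the top 24.4%, against the top 18.6%, and all 69 distinct NRF1 summits one of the top 31.5%. They spanned 2.53 to 1910.

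ZNF143 summits at histone genes were weak. Their median column 5 was 5.85, against 23.6 over the 6323 genes with a ZNF143 summit, and their median place was the top 73.7%, against the top 38.0%. None of the 29 stood in the top 25% of the ZNF143 list, where 36.2% of all genes with a summit did. Restricting the list to its top 50% left ZNF143 at 5 histone genes (6.76%), against 19.4% of all genes.

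**Figure D2:**
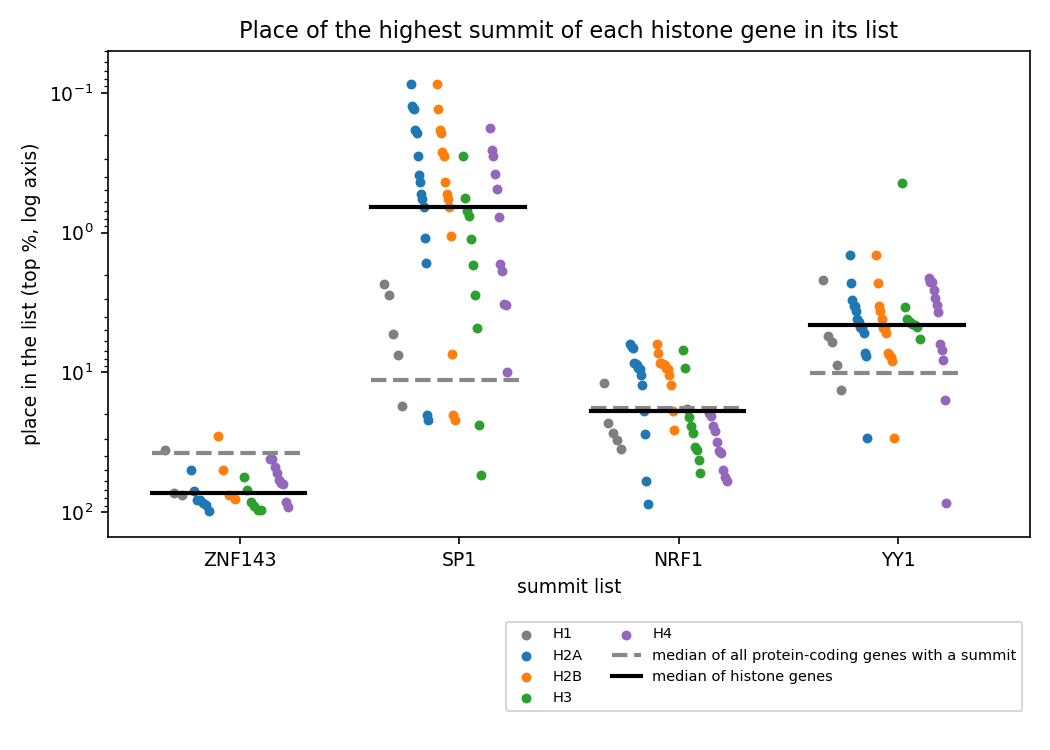
Place of the highest summit of each histone gene in its list (top percent, log axis with the strongest at the top), by list and class; black lines are medians of histone genes and grey dashed lines medians of all protein-coding genes with a summit. SP1 points cluster around the top 0.658% and ZNF143 points around the top 73.7%, on opposite sides of the grey lines.

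The linker histone genes, whose proteins bind the DNA between nucleosomes, had the lowest SP1 and YY1 shares of the classes. SP1, NRF1 and YY1 each had a summit at 5 of 10 H1 genes, and ZNF143 at 3. Among the occupied genes were H1-2, H1-3 and H1-4 of the main chromosome 6 cluster and the replication-independent H1-10. H1-10 had 182 for NRF1, the highest of the class, 161 for YY1, 447 for SP1 and 5.61 for ZNF143. H1-4 had the highest SP1 value of the class, 885, at 116 bp downstream of its start, and SP1 also lay downstream at H1-2 (72 bp) and H1-3 (61 bp). The gene for the somatic H1-1, the testis type H1-6, the oocyte type H1-8, the testis type H1-7 and the somatic H1-5 had no summit. The sequence AAACACA, the AC box of H1 promoters, was present in 8 of 10 H1 promoters (250 bases before to 49 after the start) and in 5.11% of all promoters.

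H2A genes, which encode the core histone of the outer dimer with H2B, had the highest SP1, YY1 and NRF1 shares of the classes, at 16, 15 and 14 of 17 genes. ZNF143 had a summit at 7 of them, a share below those of H3 and H4. The NRF1 share of H2A leans on summits of divergent H2B partners. At 9 H2A genes the highest NRF1 summit lay in the partner's H2B coding sequence, 326 to 393 bp upstream of the H2A start. At H2AC6, H2AC11, H2AC13, H2AC15, H2AC17 and H2AC20 no other NRF1 summit lay within 500 bp. The strongest SP1 values of all histone genes were in the H2A class, 5013 at H2AC12, 4308 at H2AC18, 4256 at H2AC19 and 4231 at H2AC11. The summits of 5013 and 4231 are shared with H2BC12 and H2BC11, the partners of these genes, and those of H2AC18 and H2AC19 lie in sequence present at 2 places in the genome. The SP1 summit lay at a median of 70.5 bp upstream of the H2A start, and at 15 of 16 distinct SP1 summits nearest an H2A gene the letters CCAAT lay within 50 bp. H2AC18 and H2AC19, a pair of copies on chromosome 1, also had the strongest NRF1 summits of genes outside H2A/H2B pairs, 1557 at 189 bp and 1525 at 187 bp upstream. The testis gene H2AC1 had no summit.

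H2B genes had SP1 at 14 of 19, YY1 at 13, NRF1 at 12 and ZNF143 at 4. The ZNF143 share, 21.1% (interval 8.51 to 43.3%), was the lowest of the classes, and its interval overlapped that of every other class. H2BC6 had the highest ZNF143 value of all histone genes, 45.8 (top 28.5%), but that summit lies beside an annotated start 11702 bp upstream of the start of the canonical transcript, and no summit of any list lay within 500 bp of the canonical start. At canonical starts the H4 genes H4C3 and H4C15 had ZNF143 values of 19.2 and 18.7. The octamer ATTTGCAT was present in 14 of 19 H2B promoters and 12 of 17 H2A promoters, against 1.70% of all promoters. The promoters of divergent H2A and H2B partners overlap, so the same octamer can count for both genes. Its first base lay at a median of -49 bp from H2B starts and -194.5 bp from H2A starts. Of the H2A genes without a divergent H2B partner, H2AC4, H2AC16 and H2AC21 had it.

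H3 genes had SP1 and NRF1 at 10 of 13 each, YY1 at 8 and ZNF143 at 6. YY1 was set far into the genes: its median offset was 184.5 bp downstream of the start. H3C6 had the highest YY1 value of all histone genes, 3455 (top 0.443%), at 188 bp, with NRF1 at 1379. Its annotated start lies 936 bp from that of the canonical transcript, whose surroundings held a YY1 summit of 6.04 alone, so both values belong to the outer start. H3C12 is a like case, since its annotated start lies 2280 bp from the canonical one and shares the summits of H2AC17 and H2BC17. Its SP1 value of 3047 was the highest of the class, and the SP1 value at the canonical start was 335. Of ZNF143, H3C15 had the highest value of the class, 10.4.

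H4 genes had YY1 at 12 of 15, SP1 at 11, NRF1 at 10 and ZNF143 at 9. They held the highest ZNF143 share, 60.0% (interval 35.7 to 80.2%), and 7 of the 12 histone genes with the highest ZNF143 values. Those values were low: 19.2 at H4C3, 18.7 at H4C15, 14.6 at H4C14, 12.1 at H4C11, 9.36 at H4C5, 8.43 at H4C2 and 8.24 at H4C4. The median offsets of ZNF143, SP1 and YY1 lay close together here, at 54 bp upstream, 57 bp upstream and 24.5 bp downstream of the start. Single genes were spread more widely, with ZNF143 from 401 bp upstream at H4C8 to 152 bp downstream at H4C16. The windows of H4C14 and H4C15 each occur at 2 places in the genome. The highest SP1 value of the class was 3747 at H4C3, and the highest YY1 values were 778 at H4C4 and 729 at both H4C1 and H4C3. NRF1 reached 38.9 at most, at H4C1.

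**Figure D3:**
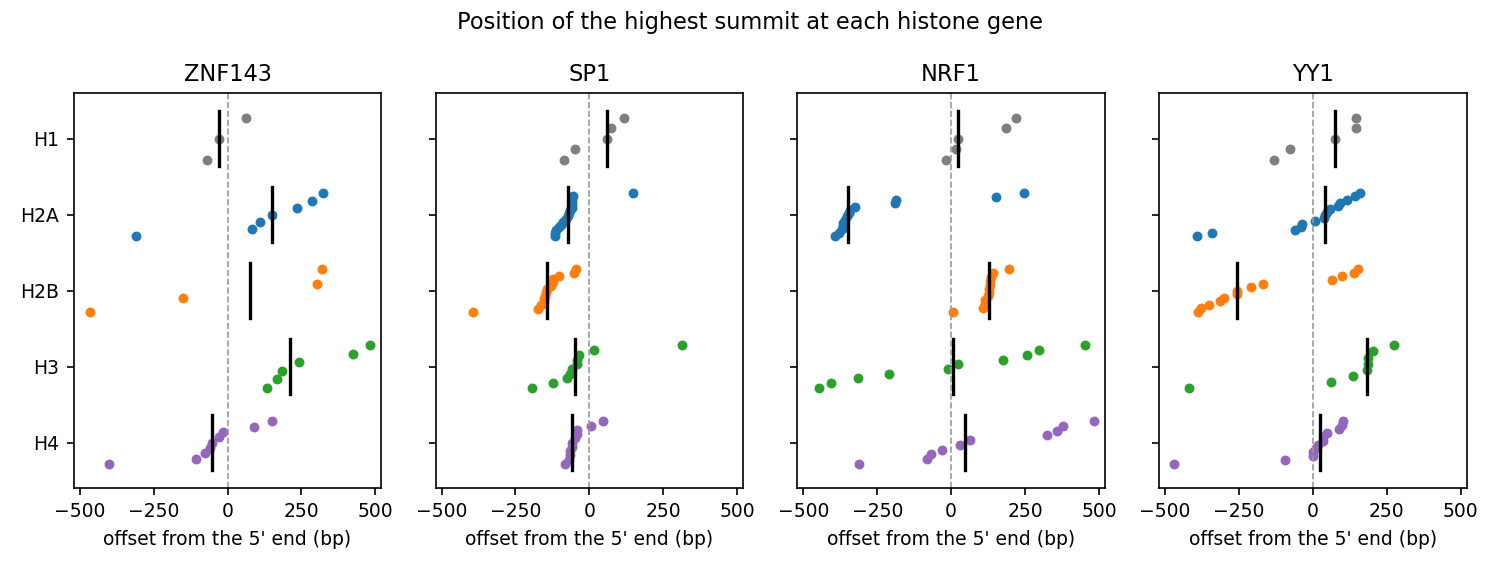
Position of the highest summit of each histone gene relative to its annotated 5′ end (bp, positive is into the gene), by list and class; black lines are medians. SP1 points stand together just upstream of the start in H2A, H3 and H4, and NRF1 points stand together at 107 to 196 bp in H2B except for H2BC6 at 7 bp.

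SP1 summits at the histone genes lay beside the CCAAT box more often than beside the textbook GC box, with differences between the classes. Of 47 distinct SP1 summits at histone genes, 25 (53.2%, interval 39.2 to 66.7%) had CCAAT within 50 bp on either strand, against 19.5% of the distinct SP1 summits at all genes. The GC box GGGCGG lay within 50 bp of 9 (19.1%, interval 10.4 to 32.5%), against 41.9%. At the 12 summits nearest H4 genes CCAAT was absent and GGTCCG, the start of the H4 element, lay within 50 bp of 9, while the GC box lay within 50 bp of 5 (41.7%), a share like that of all genes. Over all classes GGTCCG lay near 12 of the 47 (25.5%, interval 15.3 to 39.5%), which overlaps the interval for the GC box. Histone promoters share this composition. CCAAT was present in 61 of the 74 (82.4%) and TATAAA in 48 (64.9%), against 35.9% and 10.8% of all promoters, and the GC box in 22 (29.7%), against 52.4%. The GC box was present in 5.88% of H2A and 15.8% of H2B promoters, and in 53.3% of H4 and 50.0% of H1 promoters. GGTCCG was present in 12 of 15 H4 promoters, with its first base 44 to 47 bp upstream of the start, and in 12.6% of all promoters. The HINFP core GTCCGC, which overlaps it by 5 letters, was present in 8 of 15, against 14.4%. GGTCCG was added to the search after the sequences had been seen.

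The promoters below, from the hg38 sequence, show these elements in core histone genes with the highest YY1 value of their class, with 10 bases past each start. H3C2 was added because the H3C6 start is not the canonical one. Capitals mark the CCAAT box, the TATA box, the GC box, the octamer and the first letters of the H4 element as spelled above, on either strand. The first runs from H2BC4 to H2AC6, a divergent pair, over chr6:26123916-26124155 (plus strand). The others are H4C4 at chr6:26189102-26189237 (minus strand), H3C6 at chr6:26224074-26224209 (plus strand) and H3C2 at chr6:26032089-26032224 (minus strand).
H2BC4 to H2AC6: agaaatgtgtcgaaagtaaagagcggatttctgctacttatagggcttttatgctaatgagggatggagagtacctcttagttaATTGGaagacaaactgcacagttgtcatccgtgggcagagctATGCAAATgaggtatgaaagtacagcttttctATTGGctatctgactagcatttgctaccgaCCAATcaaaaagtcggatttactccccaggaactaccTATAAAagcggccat
H4C4: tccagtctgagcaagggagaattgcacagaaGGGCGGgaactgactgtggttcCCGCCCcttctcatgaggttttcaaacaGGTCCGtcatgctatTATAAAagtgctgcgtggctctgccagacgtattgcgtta
H3C6: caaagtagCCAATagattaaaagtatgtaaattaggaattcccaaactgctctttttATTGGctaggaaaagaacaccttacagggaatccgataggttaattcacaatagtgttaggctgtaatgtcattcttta
H3C2: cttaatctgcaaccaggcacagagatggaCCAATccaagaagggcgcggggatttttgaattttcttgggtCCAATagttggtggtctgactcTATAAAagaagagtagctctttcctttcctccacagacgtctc

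In the pair, the octamer and 3 copies of CCAAT, in either direction, lie between the starts, and the SP1 summit of 2425 sits 57 bp before the H2AC6 start. The TATAAA letters overlap that annotated start, and the canonical H2AC6 start lies further into the gene. At H4C4, with an SP1 summit of 2585 at 42 bp upstream, GGTCCG lies 44 to 39 bp upstream and TATAAA 29 to 24 bp upstream. At H3C2, with an SP1 summit of 2116 at 75 bp upstream, the CCAAT copies begin 96 and 54 bp upstream. The H3C6 stretch has CCAAT in both directions and no TATAAA. The 17 genes in no list hold the same letters, with CCAAT in 15 and TATAAA in 8 of their promoters.

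H2A and H2B genes often stand back to back, so that a single stretch of DNA starts both. There were 12 such pairs, 24 genes, with starts 170 to 251 bp apart (median 234.5). An SP1 summit was found at 11 pairs and between the starts at 10, and in all 11 the highest one lay nearer the H2A start (median 78 bp before H2A and 149 bp before H2B). NRF1 was found at 9 pairs, and in all 9 its highest summit lay in the H2B coding sequence, at a median of 128 bp into H2B. YY1 was found at 10 pairs and never between the starts: 6 of its highest summits lay in the H2A coding sequence, 2 in the H2A 5′ UTR and 2 in the H2B coding sequence. ZNF143 was found at 4 pairs, in the H2A coding sequence in 3 and the H2B coding sequence in 1.

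Those 4 pairs had all 4 lists within 500 bp of at least 1 of the paired starts. H2AC25/H2BC26 on chromosome 1 had SP1 3644, NRF1 157, YY1 458 and ZNF143 13.0. H2AC12/H2BC12 had SP1 5013, NRF1 450, YY1 417 and ZNF143 3.63. H2AC20/H2BC21 had SP1 3669, NRF1 603, YY1 308 and ZNF143 5.59, and H2AC13/H2BC13 had SP1 1961, NRF1 587, YY1 197 and ZNF143 2.11. The pair H2AC11/H2BC11 had the highest NRF1 value, 1910, with SP1 4231 and YY1 284 and no ZNF143. The pair H2AC14/H2BC14 had SP1 alone, 69.9, in the H2A coding sequence, and the testis pair H2AC1/H2BC1 had none.

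**Figure D4:**
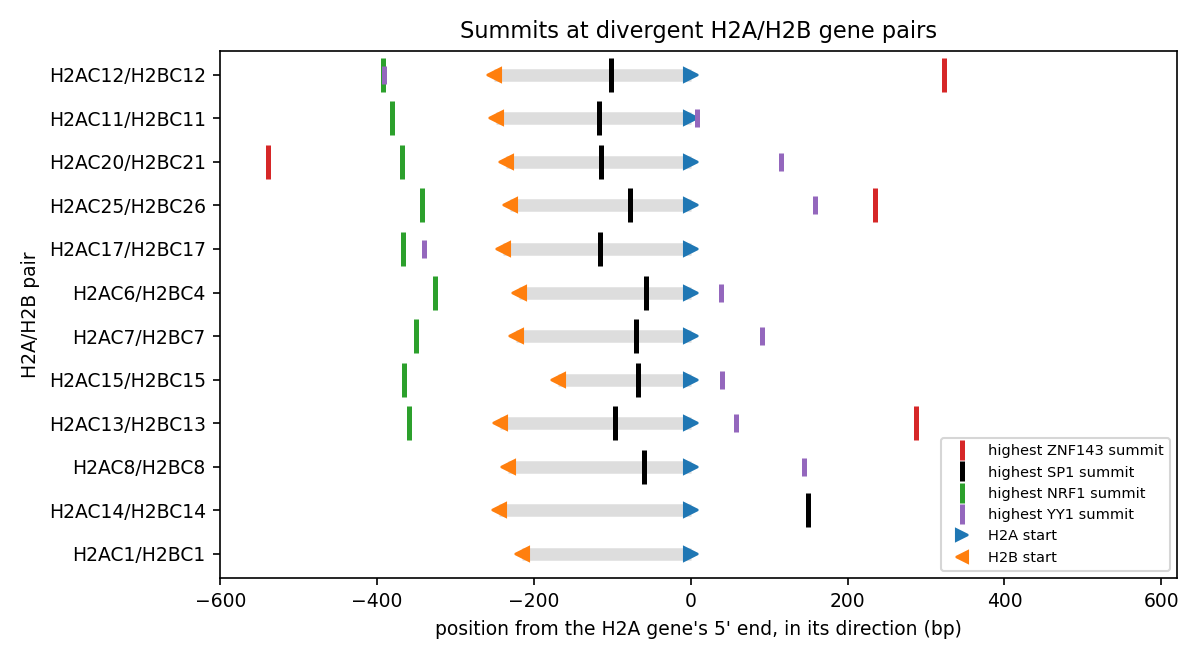
Highest summit of each list at the 12 divergent H2A/H2B pairs, as the distance from the H2A start in the H2A direction (bp); grey bars join the starts, and pairs are ordered by SP1 column 5. SP1 lies between the starts in 10 pairs and NRF1 beyond the H2B start in 9, and at H2AC12/H2BC12 the YY1 and NRF1 marks fall on each other.

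NRF1, YY1 and ZNF143 summits at histone genes lay in coding sequence more often than those at all genes. Of 69 distinct NRF1 summits, 31 (44.9%, interval 33.8 to 56.6%) lay in coding sequence, against 5.57% at all genes. For YY1 it was 34 of 57 (59.6%, interval 46.7 to 71.4%), against 13.2%, and for ZNF143 17 of 33 (51.5%, interval 35.2 to 67.5%), against 6.64%. SP1 kept outside, with 5 of 47 (10.6%) in coding sequence, against 4.30%. Histone genes are short, with a median length of 509 bp, and 40.4% of the bases within 500 bp of their starts are coding, against 8.74% at all genes. The NRF1 and ZNF143 shares in coding sequence have intervals that include that 40.4%, the YY1 interval lies above it and the SP1 interval below it.

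Within H2B genes NRF1 sat at a single place in the coding sequence. The 11 distinct NRF1 summits in H2B coding sequences lay at bases 75 to 93, with a median of 87. There the H2B genes share a run of 10 bases, at coding bases 87 to 96, made of a pair of GCGC letters 2 bases apart, the arrangement of an NRF1 site. It lies in the codons of the basic stretch of the H2B N-terminal tail. The element was found after the summits had been seen. It was identical in 14 of the 19 H2B genes, and 10 of the 14 had an NRF1 summit within 100 bp. Their NRF1 values ran from 157 to 1910 with a median of 595, and the summits lay 16 bp before to 2 bp after the middle of the element (median 3.5 bp before).

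The elements are shown with 15 bases on each side, with the 10 bases in capitals: the 3 identical genes that span the range of NRF1 values, then the 5 that differ.
H2BC11: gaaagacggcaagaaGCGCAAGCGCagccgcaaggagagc
H2BC5: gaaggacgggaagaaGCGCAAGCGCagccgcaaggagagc
H2BC26: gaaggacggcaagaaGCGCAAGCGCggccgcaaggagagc
H2BC7: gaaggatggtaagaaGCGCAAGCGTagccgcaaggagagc
H2BC3: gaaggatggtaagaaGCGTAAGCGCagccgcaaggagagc
H2BC14: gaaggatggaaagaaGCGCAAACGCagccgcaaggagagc
H2BC1: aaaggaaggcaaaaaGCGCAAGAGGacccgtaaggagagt
H2BC9: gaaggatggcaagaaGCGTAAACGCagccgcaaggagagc
They lie at chr6:27132640-27132679 (H2BC11), chr6:26158241-26158280 (H2BC5), chr1:228458201-228458240 (H2BC26), chr6:26199630-26199669 (H2BC7), chr6:26043547-26043586 (H2BC3), chr6:27815115-27815154 (H2BC14), chr6:25726983-25727022 (H2BC1) and chr6:26251722-26251761 (H2BC9).

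Positions are counted from 1 at the first capital, with the common base first. H2BC11, H2BC5 and H2BC26 carry the common element, with NRF1 at 1910, 1198 and 157. H2BC7 carries C10T and had an NRF1 summit of 43.0 and an SP1 value of 2234. The 10 genes with the common element and an NRF1 summit had SP1 values of 1506 to 5013. H2BC7 is 1 gene, and bases beside its element differ from those of genes with the common element too. An effect of C10T was not tested. H2BC14 carries G7A and had no NRF1 summit, with SP1 at 69.9. H2BC3 (C4T), H2BC9 (C4T and G7A) and H2BC1 (C8A and C10G) had no NRF1 summit, and none of them had an SP1 or YY1 summit. In these 3 genes a changed element and a gene without any of the factors cannot be told apart, nor at H2BC14 a changed element and a gene with weak SP1 and no YY1 summit.

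The common element was not always occupied. H2BC8 carries it and had no NRF1 summit, with weak SP1 (82.7) and YY1 (35.4), and H2BC10 and H2BC12L carry it and had no summit of any list. The window of H2BC12L occurs at 2 places in the genome, so a read there cannot be assigned to 1 of them. H2BC6 carries it 11823 bp from its annotated start, with no NRF1 summit there. The exact 10 bases occurred within the first 250 bp of 57 of the 19970 genes (0.285%), 13 of them H2B genes, which are the 14 with the common element apart from H2BC6. Of the other 44, 31 (70.5%) had an NRF1 summit within 50 bp of the copy, with column 5 from 90.8 to 23282 and a median of 5347. The H2B values, all at or under 1910, stood in the lower part of that range. With any 2 bases between the GCGC letters (GCGCNNGCGC), the arrangement lay within 50 bp of 10 of the 12 NRF1 summits nearest an H2B gene and of 17.0% of the distinct NRF1 summits at all genes. The 8-base NRF1 consensus GCATGCGC was in none of the 74 promoters (upper bound 4.93%). It was in 3.75% of all promoters, a share under that bound.

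**Figure D5:**
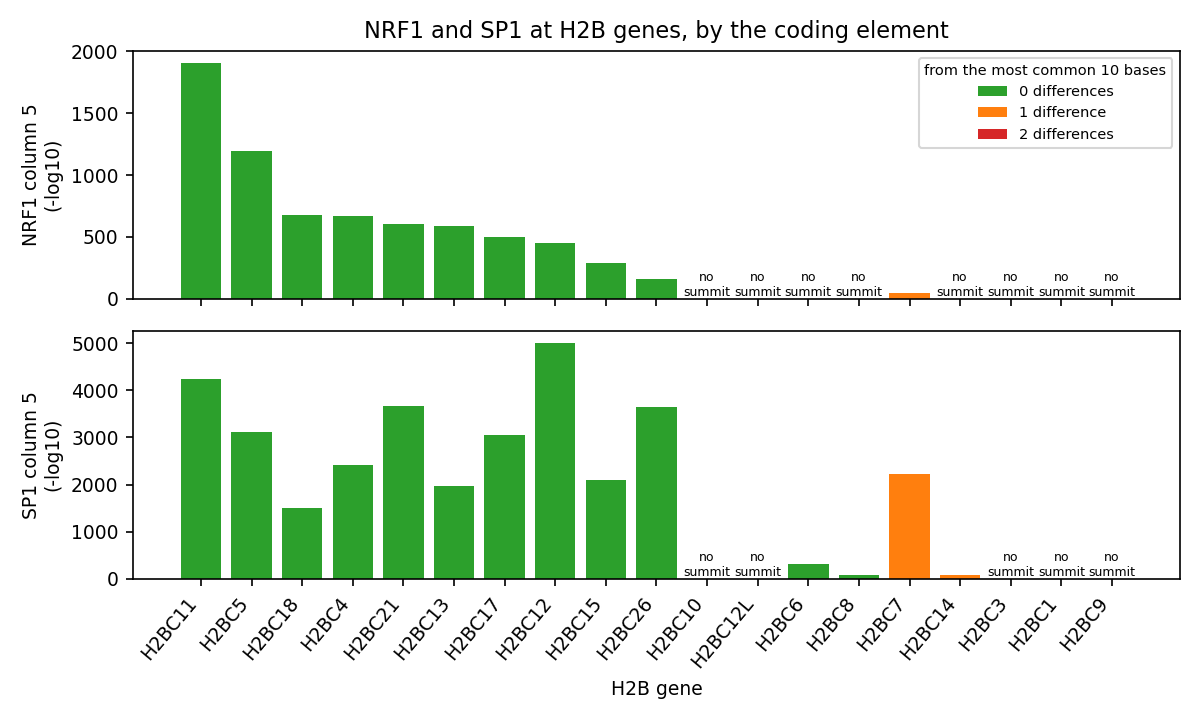
NRF1 (top) and SP1 (bottom) column 5 (−log10) at the 19 H2B genes, NRF1 within 100 bp of the element and SP1 within 500 bp of the annotated start; colours give the number of bases that differ from the most common element. NRF1 bars stand at 157 to 1910 in 10 genes with no difference and at 43.0 in H2BC7, and the SP1 bar of H2BC6 belongs to its distant annotated start.

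Consensus letters of the other factors were rare at histone genes and at all genes alike. For each of these motifs the interval at histone genes included the share at all genes. Neither YY1 consensus searched, AANATGGCG or AAGATGGC, lay within 50 bp of any of the 57 distinct YY1 summits at histone genes (0%, upper bound 6.31%), against 4.63% and 3.53% of those at all genes. Of 33 distinct ZNF143 summits, 1 (3.03%, interval 0.537 to 15.3%) had ACTACAA, from the ZNF143 consensus, in the surrounding 50 bp, against 5.45%, and none had CCCAGAAT, against 1.71%. Of the 33 ZNF143 summits, 11 (33.3%, interval 19.8 to 50.4%) lay within 100 bp of an SP1 summit, against 62.0% at all genes. Near a YY1 summit lay 19 (57.6%), against 62.8%, and near an NRF1 summit also 19 (57.6%), against 43.8%.

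Neighbouring genes differed. In the chromosome 1 cluster, ZNF143 had a summit at 10 of 11 genes and SP1, NRF1 and YY1 at all 11. This cluster contains a repeated stretch: the 1-kb windows of H4C14, H4C15, H3C14, H3C15, H2AC18 and H2AC19 each occur at 2 places without a mismatch, so reads cannot be assigned to one copy. Of the 206 distinct summits at histone genes, 45 lie in 51 bp that occur at more than 1 place. Without the 18 genes with such a window or summit, ZNF143 had a summit at 28.6% of 56 genes. The summit criterion leaves out only genes that have a summit, so this share is lowered partly by construction. In the main chromosome 6 cluster 9 of 32 genes had no summit of any list. The genes in no list were 5 H1, 1 H2A, 5 H2B, 3 H3 and 3 H4 genes. The first 6 in the order of the annotation were H1-7, H2BC12L, H1-8, H2AC1, H2BC1 and H1-1. No peak number was skipped at any of the 12 loci, so no sign of a removed peak was found there.

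The 6 genes outside the clusters were of both kinds. H4C16 on chromosome 12 had SP1 at 1016, YY1 at 176, NRF1 at 4.77 and ZNF143 at 3.08. H1-10 also had all 4 lists, as given above. H1-7, H1-8 and H2BC12L had none. Some genes lay at the edge of the rule. ZNF143 summits of 2.41 at H3C13 (483 bp) and 13.0 at H2BC26 (-465 bp) counted, and those of 2.11 at H2BC13 (-531 bp) and 3.63 at H2BC12 (-574 bp) did not. A YY1 summit of 844 lay 639 bp into H3C7 and did not count, and one of 729 at 471 bp upstream of H4C1 did.

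Genes that serve the histone genes were read from a list of 29. The shares of all protein-coding genes to set beside them are 59.1% for SP1, 57.8% for YY1, 48.3% for NRF1 and 31.7% for ZNF143. Of the 9 listed genes for transcription, SP1, NRF1 and YY1 had a summit at all 9 and ZNF143 at 6. Of the 12 for processing of the messages, SP1 and YY1 had one at 11 and NRF1 and ZNF143 at 10. Of the 8 chaperones and assembly factors, SP1 had one at 8, YY1 at 7, NRF1 at 6 and ZNF143 at 4. At the 20 of these genes with a ZNF143 summit its median column 5 was 17.7, against 23.6 at all genes with one. The highest values were 16079 at SYMPK, a scaffold of the cleavage machinery, 10694 at ZNF473, which binds the U7 particle, and 5332 at LSM10, a U7 ring protein. NPAT, the coactivator, had NRF1 at 3301, SP1 at 212, YY1 at 73.3 and no ZNF143. HINFP, the H4 factor, had NRF1 at 13825, SP1 at 641, ZNF143 at 90.4 and YY1 at 62.0. CASP8AP2, a partner of NPAT, had SP1 at 557, YY1 at 119, NRF1 at 7.08 and ZNF143 at 2.11. SLBP, which binds the message stem-loop, had SP1 at 1684, NRF1 at 258, YY1 at 148 and ZNF143 at 20.8.

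The name rule leaves out 24 other histone genes (variants such as H2AX, H2AZ1 and H3-3A, and testis types). Among these, SP1 and YY1 had a summit at 8 each, NRF1 at 7 and ZNF143 at 3, and 14 had none. Of all protein-coding genes, 59.1% had SP1, 57.8% YY1, 48.3% NRF1 and 31.7% ZNF143, and 37.3% had none. H2AX, which is made both with and without the poly(A) tail, had SP1 at 1673, YY1 at 189, ZNF143 at 41.8 and NRF1 at 25.5. H3-3A, a replacement histone, had YY1 at 1001, NRF1 at 48.5 and ZNF143 at 13.0 and no SP1 summit. These genes were picked after their values had been seen.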

How the data were processed

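The deposited files used were 4 lists of peak summits on hg38, 1 per antibody. The submitters' processing notes name cutadapt, Bowtie2, SAMtools 1.16.1, MACS3 and bedtools, with no order or settings. The lists of SP1 and ZNF143 each stand, per the labels, for untreated and treated samples together. The NRF1 and YY1 lists were matched by the antibody in their names, and their samples are not stated. Column 5, as the authors deposited it, is a −log10 significance, a p-value or a q-value, judged from the values and layout (lowest value 2.00, as a cutoff of 0.01 would give), and which of them is not given in the sources used here. Signal tracks were not analysed here.

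Positions were compared with GENCODE 44 in Python 3.11.15 (pandas 2.3.3, numpy 2.4.6, scipy 1.17.1, pysam 0.24.0). The annotated 5′ end of the gene was used, and where several summits lay within 500 bp the highest was taken. Genes whose starts lie within 200 kb formed a locus, and divergent starts within 1000 bp a pair. Gene parts came from canonical transcripts. Repeated sequence was found with blastn 2.17.0 without mismatches. Motifs were searched without mismatches on both strands: TATAAA for the TATA box, CCAAT for the CCAAT box, ATTTGCAT for the octamer, GGGCGG for the GC box, GTCCGC for HINFP, AAACACA for the H1 box, AANATGGCG for YY1 in its long form, AAGATGGC for YY1 in its short form, GCATGCGC for NRF1, ACTACAA with CCCAGAAT for ZNF143 and GCGGGAAA for E2F. Added after seeing the data were GGTCCG for the H4 element and GCGCNNGCGC for NRF1. A match and a summit are both descriptions of position. The counting was tested on simulated positions.

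Named genes were the 12 with the highest ZNF143 values, the 5 highest for each other list and the highest of each class, genes outside the clusters, pairs with all 4 lists, the first 6 genes without a summit, and 7 of the serving genes. The H2B element genes and the variants outside the name rule were chosen after their values were seen. The members and lists were chosen with earlier results of these data known. One gene that the naming rule takes is counted with its class and its values are not reported here.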

Additional observations from a re-analysis of the deposited data

How the results depend on the processing

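Of 95 alternatives, 84 gave a value inside the interval of the value reported and 11 moved, with no median changing sign. At 250 bp in place of 500 bp, NRF1 fell to 50.0% of the histone genes (39.7% of all genes) and all 4 lists to 21.6% (18.9%). With the top 50% of each list by column 5, ZNF143 fell to 6.76% (19.4% of all genes) and all 4 lists to 6.76% (16.3%), so that the share with all 4 lists went from above that of all genes to below it. Without genes whose window or summit sequence is repeated, ZNF143 stood at 28.6%. That fall is partly by construction, because the summit criterion leaves out only genes with a summit. With every distinct summit, secondary ones included, the median place was the top 31.5% for NRF1 and the top 5.52% for YY1. With each highest summit once, chosen after seeing the data, it was the top 24.4% and the top 4.69%. Among all single-exon protein-coding genes, the histone genes included, the background share was 27.1% in the SP1 list, 27.0% in the YY1 list, 21.2% in the NRF1 list and 12.4% in the ZNF143 list. The equal list length of 16165 summits is that of the ZNF143 list, so its share could not change there, though it counts among the 84. With equal list lengths, canonical starts or merged windows, none of the shares of histone genes left its interval, but the comparison with all genes changed. The interval came to include the share of all genes for SP1, YY1 and all 4 lists at canonical starts, for YY1 at 1000 bp (62.3% of all genes) and in merged windows, and for all 4 lists without the genes outside the clusters. In merged windows the ZNF143 interval (33.1 to 57.5%) lay above the 31.7% of all genes. Read depth is unknown, so a gene in no list is one without a summit at the authors' threshold. No paired analysis was possible because the lists hold no value per sample, and for the same reason no replicate could be left out in turn.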
